A study of Mus musculus with 8 samples.

Results

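The mRNAs of complement and coagulation factors that the liver secretes into plasma were compared between LWT and LΔRbfox2 livers. The genes were chosen as a list of 41 complement, coagulation and fibrinolysis symbols, and 40 of them, out of 46078 gene identifiers in the table, were found by their GRCm38 symbol. *Klkb1*, which encodes plasma prekallikrein, was not analysed here. LWT mice carried loxP sites on both copies of *Rbfox2* and no Cre, and are labelled wild-type. LΔRbfox2 mice carried the same loxP sites and a Cre recombinase driven by the albumin promoter, which is active in hepatocytes, so other liver cells keep the gene. All mice ate a control diet (CD) and were fasted before the livers were frozen. The labels give 12 weeks on this diet, the study's methods give a longer feeding period, and neither gives the sex of these 8 animals, although the methods state males by default. There were 4 livers of each genotype, with 1 library of poly(A) RNA per liver.

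Complement is a chain of plasma proteases and binding proteins that marks microbes and damaged cells. Antibody complexes start it through C1 and C4, sugars through mannose-binding lectins, and all routes meet at C3, after which the terminal components build a pore in the target membrane. Coagulation is a similar chain that ends with thrombin cutting fibrinogen into fibrin, while antithrombin, protein C and protein S hold it in check and plasmin dissolves the clot. Hepatocytes make most of these proteins, which depend on HNF4 and C/EBP transcription factors and, during inflammation, on interleukin-6.

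The total count per library ranged from 37482458 to 56177588. *Rbfox2*, the deleted gene, was at 17.1, 10.4, 11.4 and 18.3 CPM (counts scaled to library size, with TMM normalization) in LWT replicates 1 to 4 and at 4.61, 6.09, 2.24 and 3.19 CPM in LΔRbfox2 replicates 1 to 4. Every LΔRbfox2 liver lay under every LWT liver, and these counts cover the whole gene rather than the deleted exons. The TMM factors of LΔRbfox2 replicates 3 and 4 were 0.724 and 0.776, apart from the 1.02 to 1.14 of the other 6 libraries. Hepatocyte markers such as *Alb* and *Ttr* summed to 49210 to 71770 CPM in LWT livers and 55330 to 77390 CPM in LΔRbfox2 livers (7 of 8 listed markers matched). In whole liver, fewer cells of a type and less RNA per cell cannot be told apart.

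No complement or coagulation factor passed the test of a difference between genotypes. With edgeR's quasi-likelihood test and Benjamini–Hochberg adjustment over 13856 genes, 0 of the 40 members passed an adjusted *P* of 0.05, and the members' adjusted *P* values started at 0.504. Over all genes tested this count was 0 as well (0.0% called). At an unadjusted *P* under 0.05 there were 3 members, *C8g* at higher and *C4b* and *Cfb* at lower level in LΔRbfox2 livers. That is 3 of 40 members, beside 9.79% of all genes. By direction it is 1 higher member beside 7.95% of all genes, and 2 lower members beside 1.83%. The DESeq2 test called 0 of the 40 members and 0.0722% of all genes, *Rbfox2* among them.

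The log2 fold changes of the 40 members (LΔRbfox2 over LWT, edgeR) lay between −0.69 and 0.82 with a median of 0.007, beside a median of −0.015 over all genes tested. There were 21 members with a mean above and 19 with a mean below LWT. Livers of both genotypes overlapped in 38 members. In the other 2, *C1ra* and *Cfb*, every LΔRbfox2 liver lay under every LWT liver, beside 1.23% of all genes. No member had every LΔRbfox2 liver above every LWT liver, beside 1.05% of all genes. In either direction, 2.28% of all genes had no overlap. The plot of differences by role shows how the groups of proteins sat around 0.

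**Figure D1:**
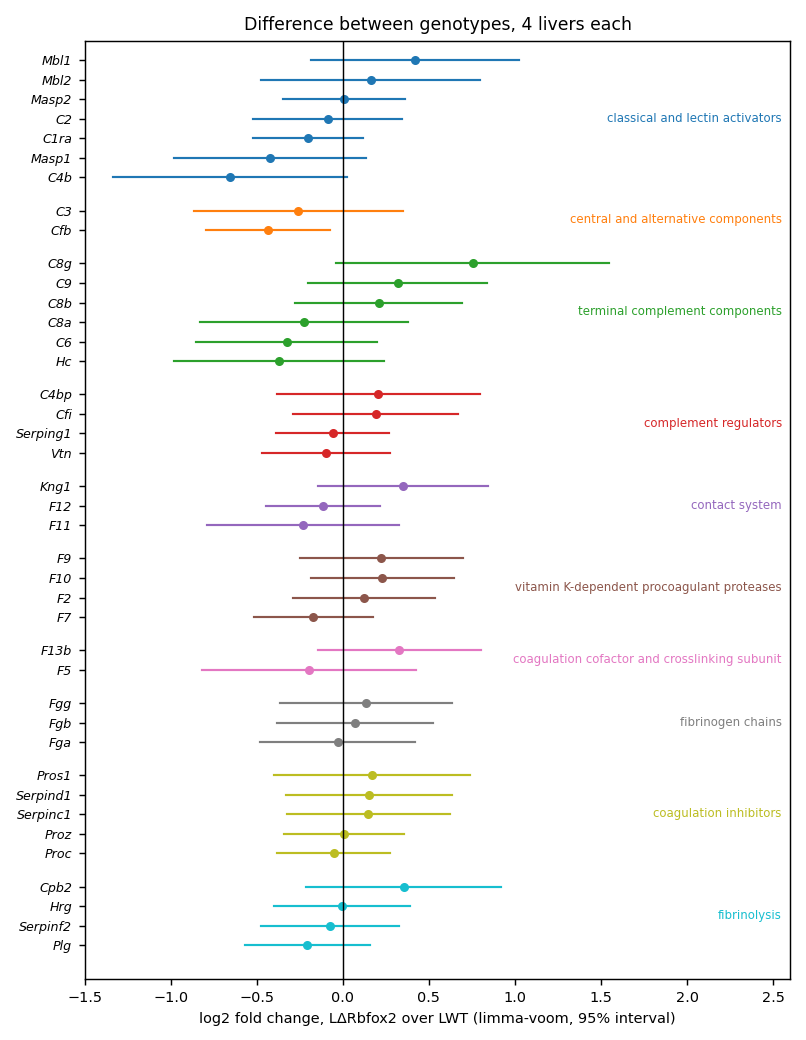
Log2 fold change of each of the 40 members (x axis, LΔRbfox2 over LWT, limma-voom) with its 95% interval as a line, for 4 livers per genotype, ordered by role on the y axis and coloured by role. The interval of *Cfb*, from −0.80 to −0.07, lies below 0, and the intervals of the other 39 members cross 0.

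Levels of different genes were compared per length, as TPM (counts scaled to exon length and to the library's sum) averaged over the 8 livers. Exon length merges the exons of all annotated transcripts of a gene and can exceed the length of its mRNA in liver. The order of the genes and their ratios per length rest on it, with 2093 bases for *Fgg*, 3010 for *Fga* and 3810 for *Fgb*. The fibrinogen γ chain mRNA *Fgg* led at 1323 TPM, followed by *C3* at 1115 TPM, *Fga* at 1101 TPM and *Fgb* at 876 TPM. *Vtn*, encoding the adhesive protein vitronectin, came next at 865 TPM, and *Kng1*, encoding kininogen, at 646 TPM. At the other end were *C2* at 7.61 TPM, *Cfb* at 6.5 TPM and *Masp1* at 4.03 TPM. *C2* and *Cfb* lie 85 bases apart on chromosome 17 of GRCm38, and 42.8% of the exon bases of *C2* and 79.5% of those of *Cfb* are shared with the annotated gene *Gm20547* on the same strand, which had 0 counts in every liver. How the authors counted reads that fall on several genes is not given in the sources used here, so the levels of *C2* and *Cfb* are uncertain.

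The share of counts taken by the members differed between libraries. All members together took 2.15, 2.22, 2.73 and 2.45% of the counts in LWT replicates 1 to 4. They took 2.62, 2.22, 1.59 and 1.72% in LΔRbfox2 replicates 1 to 4, so that LΔRbfox2 replicates 3 and 4 were lowest. TMM normalization scaled these 2 libraries up, and the CPM values below include it. *C3*, for example, was at 408 TPM in LΔRbfox2 replicate 3 and 568 TPM in LΔRbfox2 replicate 4, beside 921 to 1514 TPM in the other 6 livers.

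**Figure D2:**
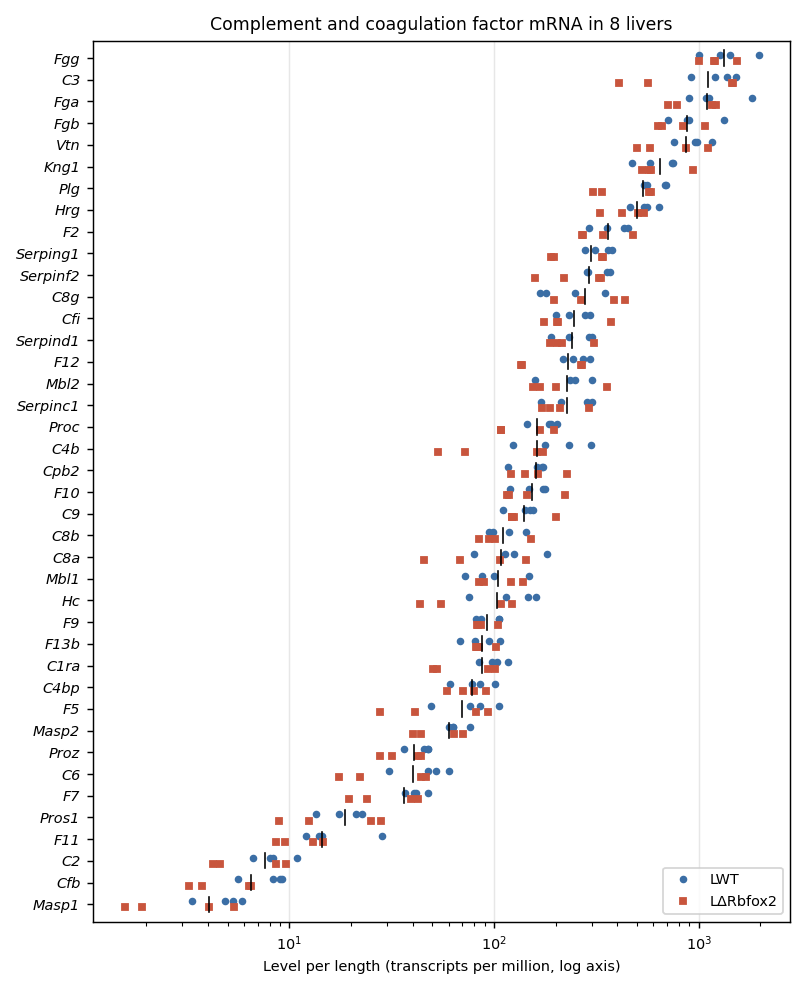
Level of each member in each of 8 livers (x axis, TPM, log axis), with blue circles for the 4 LWT and red squares for the 4 LΔRbfox2 livers and a black tick at the mean of the 8. The means run from 4.03 TPM for *Masp1* to 1323 TPM for *Fgg*, and these TPM values carry no TMM factor.

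Among the activators of the classical and lectin pathways, *C4b* had the lowest fold change. *C4b* encodes C4, which is cut by the C1 and lectin proteases and then binds the target. It was at 852, 389, 536 and 920 CPM in LWT replicates 1 to 4 and at 495, 519, 292 and 361 CPM in LΔRbfox2 replicates 1 to 4. LWT replicates 1, 3 and 4 lay above every LΔRbfox2 liver, by a wide margin in replicates 1 and 4, and LWT replicate 2 lay among the LΔRbfox2 livers. The means were 674 ± 253 CPM in LWT and 417 ± 108 CPM in LΔRbfox2 livers (SD, n = 4), with a log2 fold change of −0.69 (standard error 0.30, edgeR unadjusted *P* = 0.0441, adjusted *P* = 0.504). Its unadjusted *P* stayed under 0.05 in 10 of 18 other settings, and without LWT replicate 4 the log2 fold change was −0.51 (edgeR unadjusted *P* = 0.136). Its near-identical copy *C4a*, which can share reads with it, was at 49.0 ± 22.6 and 28.8 ± 5.64 CPM (SD, n = 4; log2 fold change −0.77, edgeR unadjusted *P* = 0.0368, adjusted *P* = 0.504).

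*C1ra* encodes C1r, the protease that activates C1s in the C1 complex. It was at 163, 159, 187 and 166 CPM in LWT livers and at 150, 158, 143 and 137 CPM in LΔRbfox2 livers. The genotypes did not overlap, but the lowest LWT and the highest LΔRbfox2 value lay within 2 CPM of each other. The log2 fold change was −0.20 (standard error 0.14, edgeR unadjusted *P* = 0.19, adjusted *P* = 0.584). An exact permutation test (two-sided) gave 0.0286, the lowest *P* this design can reach. Every gene without overlap gets this value, so it adds nothing to the lack of overlap.

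The mannose-binding lectins, which recognise microbial sugars, varied among livers of a genotype. *Mbl2*, the most abundant member of this group per length at 228 TPM, was at 166, 180, 145 and 93.3 CPM in LWT livers and at 209, 96.4, 162 and 191 CPM in LΔRbfox2 livers. LWT replicate 4 and LΔRbfox2 replicate 2 were the lowest, and the genotypes overlapped. *Mbl1* had a log2 fold change of 0.43 (standard error 0.27, edgeR adjusted *P* = 0.555). The ratio of *Mbl2* to *Mbl1* per length ran from 1.66 to 3.28 over the 8 livers. The lectin-associated proteases *Masp1* and *Masp2* and *C2*, encoding the protease of the C3 convertase of these pathways, had log2 fold changes of −0.42, 0.003 and −0.11, and edgeR adjusted *P* of at least 0.546. Of the exon bases of *Masp2*, 54.9% overlap *Tardbp* on the opposite strand, so its reads are uncertain unless strand was used in counting.

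*C3*, where all routes of complement activation meet, was the most abundant complement mRNA per length. Its values were 4012, 2598, 3770 and 4203 CPM in LWT livers and 4055, 3956, 2014 and 2561 CPM in LΔRbfox2 livers. LWT replicate 2 lay among the lower values and LΔRbfox2 replicates 1 and 2 among the higher, so the genotypes overlapped. The log2 fold change was −0.21 (standard error 0.27, edgeR adjusted *P* = 0.727).

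*Cfb* encodes factor B, which forms the C3 convertase of the alternative pathway. It was at 10.3, 12.9, 13.9 and 13.7 CPM in LWT livers and at 9.85, 9.46, 8.75 and 9.29 CPM in LΔRbfox2 livers, from at least 300 counts per library. The genotypes did not overlap, and the LΔRbfox2 livers lay closer together than the LWT livers. An exact permutation test gives *P* = 0.0286, the lowest this design can reach, to every gene without overlap, so it adds no support here. The means were 12.7 ± 1.68 and 9.34 ± 0.453 CPM (SD, n = 4), so that the LΔRbfox2 mean was 73.6% of the LWT mean. The log2 fold change was −0.44 (standard error 0.16, edgeR unadjusted *P* = 0.0202, adjusted *P* = 0.504). Its unadjusted *P* stayed under 0.05 in 15 of 18 other settings of the analysis, with log2 fold changes between −0.56 and −0.39. Its neighbour *C2*, which shares the overlap with *Gm20547*, had overlapping genotypes.

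Of the 6 terminal complement mRNAs, 3 had a mean above and 3 a mean below LWT. *C8g* encodes the γ chain of C8, a lipocalin-like subunit, whereas *C8a* and *C8b* encode the pore-forming α and β chains. *C8g* was at 162, 285, 197 and 145 CPM in LWT livers and at 352, 154, 381 and 505 CPM in LΔRbfox2 livers. Of the LΔRbfox2 livers, replicates 1, 3 and 4 lay above every LWT liver, and replicate 2 lay among the lowest values. The means were 197 ± 62.4 and 348 ± 145 CPM (SD, n = 4), which puts the LΔRbfox2 mean at 176% of the LWT mean. The log2 fold change was 0.82 (standard error 0.36, 95% interval from limma-voom −0.039 to 1.55, edgeR unadjusted *P* = 0.0389, adjusted *P* = 0.504), the largest of the 40 members. Its unadjusted *P* stayed under 0.05 in 9 of 18 other settings, and it was 0.0971 without LWT replicate 4.

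The mRNAs of the other C8 chains overlapped between genotypes. *C8a* was at 293, 160, 220 and 354 CPM in LWT livers and at 281, 204, 159 and 216 CPM in LΔRbfox2 livers. *C8b* was at 164, 132, 160 and 197 CPM in LWT livers and at 207, 127, 205 and 224 CPM in LΔRbfox2 livers. LWT replicate 4 was the highest of the 8 livers in *C8a* and LΔRbfox2 replicate 4 in *C8b*. The log2 fold changes were −0.26 for *C8a* and 0.23 for *C8b* (edgeR adjusted *P* = 0.679 and 0.655). Per length, *C8g* averaged 279 TPM over the 8 livers, beside 111 TPM for *C8b* and 108 TPM for *C8a*. The ratio of *C8a* to *C8g* per length ran from 0.171 to 1.01 over the livers, and that of *C8a* to *C8b* from 0.541 to 1.26.

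*Hc*, encoding C5, and *C6* had log2 fold changes of −0.42 and −0.35, and *C9*, whose product polymerises into the pore, had 0.33. The edgeR adjusted *P* of these 3 mRNAs lay between 0.566 and 0.574, and their genotypes overlapped. *C8b* and *C8a* lie tail to tail on chromosome 4 of GRCm38 (104766317 to 104876398), while *C8g* lies on chromosome 2 (25498651 to 25501719).

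None of the complement regulators passed the test, and all 4 overlapped between genotypes. *Vtn*, the most abundant of them per length, was at 999, 1074, 1257 and 1080 CPM in LWT livers and at 1214, 923, 968 and 1025 CPM in LΔRbfox2 livers. These values overlapped, with a log2 fold change of −0.095 (standard error 0.17, edgeR adjusted *P* = 0.806). *C4bp*, which encodes the C4b-binding protein that limits the classical pathway, was at 265, 373, 306 and 282 CPM in LWT livers and at 331, 209, 456 and 473 CPM in LΔRbfox2 livers. LΔRbfox2 replicates 3 and 4 were the highest and LΔRbfox2 replicate 2 the lowest of the 8, and the log2 fold change was 0.26 (standard error 0.26, edgeR adjusted *P* = 0.668). *Cfi*, encoding the protease that inactivates C3b and C4b, had 0.22, and *Serping1*, encoding the C1 inhibitor, had −0.060. *Serping1* ranged only from 387 to 468 CPM over the 8 livers, a fold of 1.21 between the highest and the lowest, the smallest of the 40 members.

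In the contact system, which starts clotting on charged surfaces, *Kng1* had the largest difference. *Kng1*, which encodes high and low molecular weight kininogen, was at 994, 1333, 1286 and 1012 CPM in LWT livers and at 1647, 979, 1647 and 1662 CPM in LΔRbfox2 livers. LΔRbfox2 replicates 1, 3 and 4 lay above every LWT liver and LΔRbfox2 replicate 2 below every LWT liver. The log2 fold change was 0.36 (standard error 0.22, edgeR unadjusted *P* = 0.134, adjusted *P* = 0.552), and 0.515 without LΔRbfox2 replicate 2. The mouse genome holds a close copy, *Kng2*, which can share reads with it. *F12* and *F11*, encoding the zymogens of factors XII and XI, had log2 fold changes of −0.11 and −0.30. *F11* was at 34.3 CPM in LWT replicate 4 and between 14.9 and 20.4 CPM in the other 7 livers.

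The vitamin K-dependent proteases overlapped between genotypes in each case. *F2*, encoding prothrombin and the most abundant of them per length at 362 TPM, was at 869, 1094, 1101 and 882 CPM in LWT livers and at 1183, 826, 1184 and 1101 CPM in LΔRbfox2 livers. LΔRbfox2 replicate 2 was the lowest and LΔRbfox2 replicates 1 and 3 the highest (log2 fold change 0.12, standard error 0.19, edgeR adjusted *P* = 0.771). *F9*, encoding factor IX, was at 144, 159, 154 and 127 CPM in LWT livers and at 154, 120, 217 and 206 CPM in LΔRbfox2 livers. Its highest values were those of LΔRbfox2 replicates 3 and 4, with a log2 fold change of 0.25 (standard error 0.21, edgeR adjusted *P* = 0.622). *F7* and *F10*, encoding factors VII and X, lie 1498 bases apart on chromosome 8 and had log2 fold changes of −0.16 and 0.24.

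*F13b* encodes the carrier subunit of factor XIII, which crosslinks fibrin. It was at 112, 148, 128 and 110 CPM in LWT livers and at 140, 112, 201 and 181 CPM in LΔRbfox2 livers, again with LΔRbfox2 replicates 3 and 4 highest. The log2 fold change was 0.35 (standard error 0.21, edgeR adjusted *P* = 0.55). *F5*, encoding the cofactor of factor X, had −0.22.

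The mRNAs of the 3 fibrinogen chains varied together over the livers, and none of them passed the test between genotypes. *Fga* was at 1754, 1797, 2921 and 1821 CPM in LWT livers and at 1976, 1849, 2036 and 2059 CPM in LΔRbfox2 livers. *Fgb* was at 1747, 1872, 2695 and 1793 CPM in LWT livers and at 2191, 1675, 2318 and 2219 CPM in LΔRbfox2 livers. *Fgg* was at 1360, 1636, 2194 and 1438 CPM in LWT livers and at 1722, 1321, 2012 and 2168 CPM in LΔRbfox2 livers. LWT replicate 3 was the highest of the 8 livers in all 3 chains, and all 3 overlapped between genotypes. Their log2 fold changes were −0.066, 0.052 and 0.12 (standard errors 0.20, 0.20 and 0.23, edgeR adjusted *P* of 0.896, 0.919 and 0.809).

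Across the 8 livers, the correlation of log2 CPM was 0.934 between *Fgb* and *Fgg* (Pearson's r, two-sided exact permutation *P* = 3.72e-04, adjusted over 6 relations 0.00223) and Spearman's rho was 0.976 (exact permutation *P* = 3.97e-04, adjusted 0.00238). For *Fga* and *Fgb*, r was 0.873 (exact permutation *P* = 0.00206, adjusted 0.00427) and rho 0.810 (*P* = 0.0218, adjusted 0.0436, same test). For *Fga* and *Fgg*, r was 0.744 (exact permutation *P* = 0.00213, adjusted 0.00427) and rho 0.833 (*P* = 0.0154, adjusted 0.0436, same test). Without the 2 livers farthest from the median of the first gene, LWT replicate 3 among them each time, these r were 0.913, 0.892 and 0.851. The 3 relations among C8 chains were 0.319 for *C8a* and *C8b*, −0.475 for *C8a* and *C8g* and 0.563 for *C8b* and *C8g* (adjusted exact permutation *P* of 0.426, 0.269 and 0.223). Their rho were 0.190, −0.524 and 0.643 (adjusted exact permutation *P* of 0.665, 0.236 and 0.144). Without the 2 farthest livers their r were 0.538, −0.113 and 0.745. All members share the same 8 libraries and their normalization, and over all 780 pairs of members the median r was 0.18, with quartiles of −0.407 and 0.579. There were 54 pairs above that of *Fga* and *Fgb* and 21 above that of *Fgb* and *Fgg*. How many pairs lay above the lower r of *Fga* and *Fgg* was not determined. The correlations were not recomputed with the correction for length and GC content given below.

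**Figure D3:**
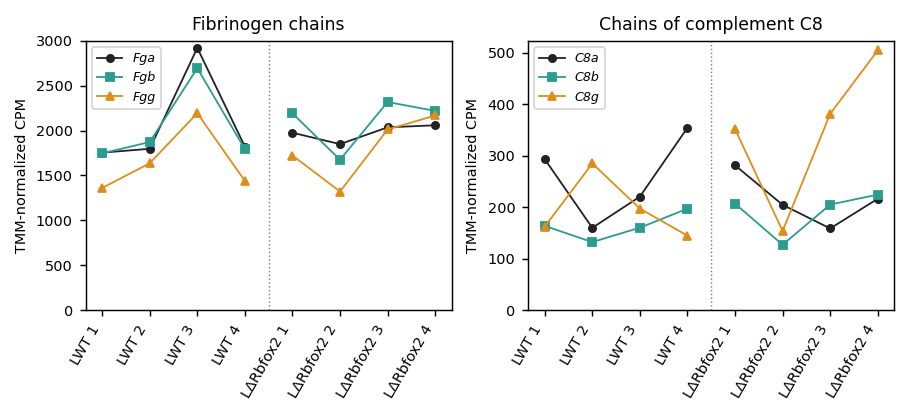
TMM-normalized CPM (y axes) of the mRNAs of the 3 fibrinogen chains, left, and the 3 chains of C8, right, in 4 LWT and 4 LΔRbfox2 livers, with 1 point per liver. Lines only link the points of a gene, since livers have no order. The fibrinogen chains share their peak in LWT replicate 3 (2921, 2695 and 2194 CPM), and *C8g* runs from 145 to 505 CPM.

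Per length, the ratio of *Fga* to *Fgb* ran from 1.11 to 1.40 over the 8 livers, that of *Fgb* to *Fgg* from 0.563 to 0.706 and that of *Fga* to *Fgg* from 0.661 to 0.974. The chains are neighbours on chromosome 3 of GRCm38, from 83007724 to 83049863, with *Fgg* and *Fga* on the plus strand and *Fgb* on the minus strand. Their upstream bases are shown, from RefSeq on GRCm38.p6, because these mRNAs encode chains of a shared protein and varied together over the livers. The capitals mark matches on either strand to the C/EBP motif TTGCNNAA or to CTGGGAA, the core of the interleukin-6 response element.
*Fgg*, chr3:83007474-83007723, plus strand: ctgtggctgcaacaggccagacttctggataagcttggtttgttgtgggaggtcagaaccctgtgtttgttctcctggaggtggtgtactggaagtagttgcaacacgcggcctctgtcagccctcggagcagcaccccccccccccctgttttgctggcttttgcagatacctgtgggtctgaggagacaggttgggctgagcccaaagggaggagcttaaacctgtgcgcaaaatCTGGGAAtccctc
*Fga*, chr3:83025903-83026075, plus strand: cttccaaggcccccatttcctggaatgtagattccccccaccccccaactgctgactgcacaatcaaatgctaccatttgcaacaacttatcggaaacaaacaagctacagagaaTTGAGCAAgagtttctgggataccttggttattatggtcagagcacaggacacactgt
*Fgb*, chr3:83049864-83050113, minus strand: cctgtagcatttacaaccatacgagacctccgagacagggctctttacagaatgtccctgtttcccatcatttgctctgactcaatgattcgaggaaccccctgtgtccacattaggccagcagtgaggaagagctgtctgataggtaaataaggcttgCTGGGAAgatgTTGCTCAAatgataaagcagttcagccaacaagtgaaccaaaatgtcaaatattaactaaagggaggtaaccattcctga
*Fgb* held both motifs, with the interleukin-6 element 91 to 85 and the C/EBP motif 80 to 73 bases before the RefSeq start. *Fga* held a C/EBP motif 135 to 128 bases before its RefSeq start, and its printed stretch stops at the earlier GENCODE start. *Fgg* held the interleukin-6 element 13 to 7 bases before its start.

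Of the 40 members, 31 had a RefSeq promoter, and the 250 bases before its start were searched on both strands. A member with several promoters entered with the first listed, whereas the share of all windows counts every promoter of a gene. TTGCNNAA was in 7 of these 31 windows (22.6%), beside 9.56% of all 32851 windows of this length, and CTGGGAA was in 5 (16.1%, beside 9.1%). CAAAGTCCA, an HNF4 motif, was in 0 windows (beside 0.384%), and TATAAA was in 2 (6.45%, beside 12.4%). These are matches of letters and not shown to be binding sites.

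The coagulation inhibitors overlapped between genotypes. *Serpinc1*, encoding antithrombin, was at 935, 1330, 1375 and 977 CPM in LWT livers and at 1337, 940, 1398 and 1403 CPM in LΔRbfox2 livers. *Serpind1*, encoding heparin cofactor II and the most abundant of the group per length, was at 270, 351, 352 and 276 CPM in LWT livers and at 364, 233, 395 and 413 CPM in LΔRbfox2 livers. *Pros1*, encoding protein S, was at 55.8, 30.4, 38.1 and 49.7 CPM in LWT livers and at 55.4, 60.3, 49.0 and 31.9 CPM in LΔRbfox2 livers. In the antithrombin and heparin cofactor mRNAs, LΔRbfox2 replicate 2 was low beside the other LΔRbfox2 livers, and in *Pros1* it was the highest of the 8. Their log2 fold changes were 0.14, 0.17 and 0.18 (standard errors 0.21, 0.22 and 0.26, edgeR adjusted *P* of 0.773, 0.725 and 0.750). *Proc*, encoding protein C, and *Proz*, encoding protein Z, had −0.052 and 0.017 and were among the most even members. Of the 8546 exon bases of *Serpinc1*, 34.4% overlap *Zbtb37* on the opposite strand. *Serpind1* has 2191 exon bases, so the order of these 2 mRNAs per length depends on the annotated exons.

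Of the fibrinolysis mRNAs, *Plg* encodes plasminogen, the precursor of plasmin. It was at 1341, 1096, 1362 and 1381 CPM in LWT livers and at 1144, 1146, 1200 and 994 CPM in LΔRbfox2 livers. LWT replicate 2 lay among the LΔRbfox2 livers and the other 3 LWT livers lay above all of them, with a log2 fold change of −0.21 (standard error 0.16, edgeR adjusted *P* = 0.613), and 11.3% of its exon bases overlap *Slc22a3* on the opposite strand. *Cpb2*, encoding the carboxypeptidase that slows fibrinolysis, was at 124, 153, 141 and 152 CPM in LWT livers and at 198, 104, 221 and 234 CPM in LΔRbfox2 livers. LΔRbfox2 replicate 2 was the lowest of the 8 and the other 3 LΔRbfox2 livers were the highest, with a log2 fold change of 0.41 (standard error 0.26, edgeR adjusted *P* = 0.548). *Serpinf2*, encoding the plasmin inhibitor, and *Hrg*, encoding histidine-rich glycoprotein, had −0.065 and 0.010.

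LΔRbfox2 replicate 2 stood apart from the other LΔRbfox2 livers in many members. It was the lowest of the 8 livers in 13 of the 40 members, and LWT replicates 4 and 3 were the highest in 10 and 9. These counts were not made over all genes. The main axis of variation between livers over all genes tested held 54.1% of the variance. On it, LΔRbfox2 replicate 2 was at −0.302, beside 0.133, 0.392 and 0.471 in LΔRbfox2 replicates 1, 3 and 4. LWT replicates 1 to 4 were at −0.5, 0.231, 0.033 and −0.459, so this liver's position is not particular to the members. Without LΔRbfox2 replicate 2, 10 members had an edgeR unadjusted *P* under 0.05, beside 24.8% of 14005 genes tested, and 0 had an adjusted *P* of at most 0.05. Without LWT replicate 2 there were 7 such members, beside 17.9% of 14136 genes, and without LWT replicate 4 there were 0, beside 3.59% of 14080 genes. *Rbfox2* itself was highest of the LΔRbfox2 livers in replicate 2 (6.09 CPM), and whether this bears on the members was not tested.

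**Figure D4:**
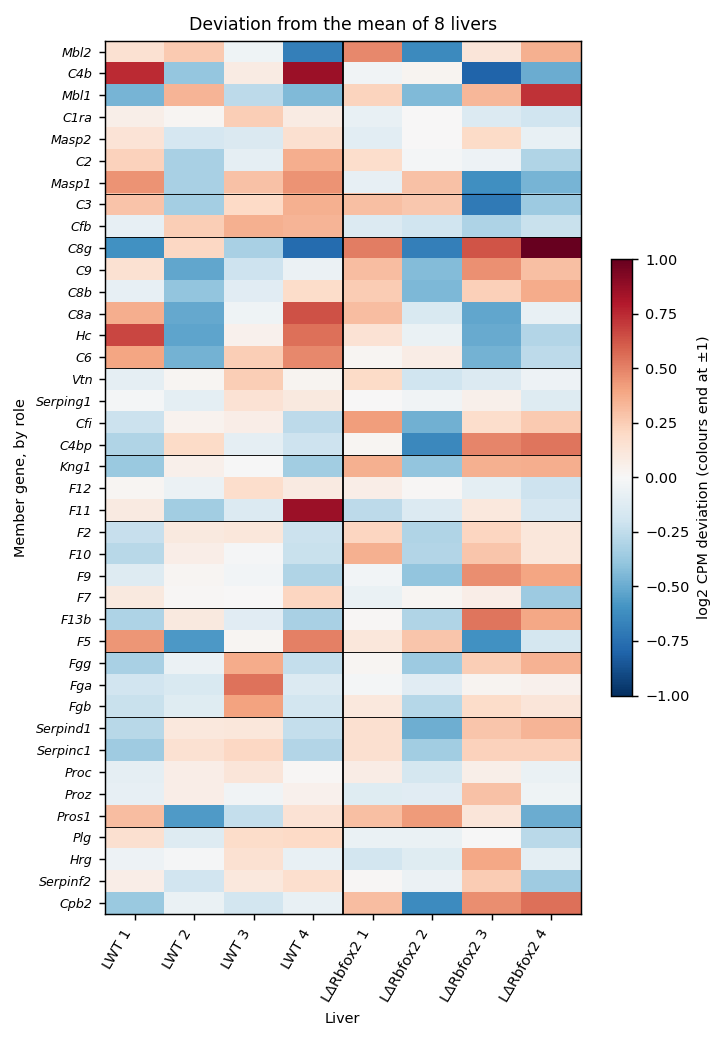
Deviation of each member (rows, grouped by role) from its mean log2 CPM over 8 livers, with 4 LWT livers left and 4 LΔRbfox2 livers right of the vertical line, red above and blue below the mean, and colours ending at ±1. The column of LΔRbfox2 replicate 2 is mostly blue, with the lowest value of 13 members, and *C8g* and *C4b* differ within both genotypes.

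The median SD of the members within genotypes was 0.303 on the log2 CPM scale, beside 0.386 over all genes tested. Between the highest and the lowest of 8 livers, the members differed by 1.21 to 3.49 fold, with a median of 1.73. Set beside genes of similar level, 25 of 40 members had an SD under the median, 8 were under the 10th percentile and 0 above the 90th. The most even were *C1ra*, *Serping1*, *Proc* and *F12*, and the least even were *C8g*, *C4b*, *Mbl1* and *Mbl2*.

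Gene length moved with the differences. Across the 40 members, the log2 fold change and log2 exon length had r = −0.445 (rho −0.386), and across 13806 genes with a length r was −0.359. These are correlations over genes, which share the same 8 livers. After each library was corrected for length and GC content, r over the members was −0.052, the median log2 fold change of the members moved from 0.007 to −0.091, and 30 members in place of 19 lay below 0. Of all genes, 54.6% lay below 0 after this correction, and 51.6% before it. *C8g*, with 1493 exon bases, had 0.63 after the correction (edgeR unadjusted *P* = 0.0444, adjusted *P* = 0.631). *C4b*, with 5695 bases, had −0.44 (edgeR unadjusted *P* = 0.0594, adjusted *P* = 0.631), and *Cfb*, with 2825 bases, had −0.45 (edgeR unadjusted *P* = 0.00685, adjusted *P* = 0.631). *Fgg* went from 0.12 to −0.27 and *Cpb2* from 0.41 to −0.056, so their direction depends on this step.

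**Figure D5:**
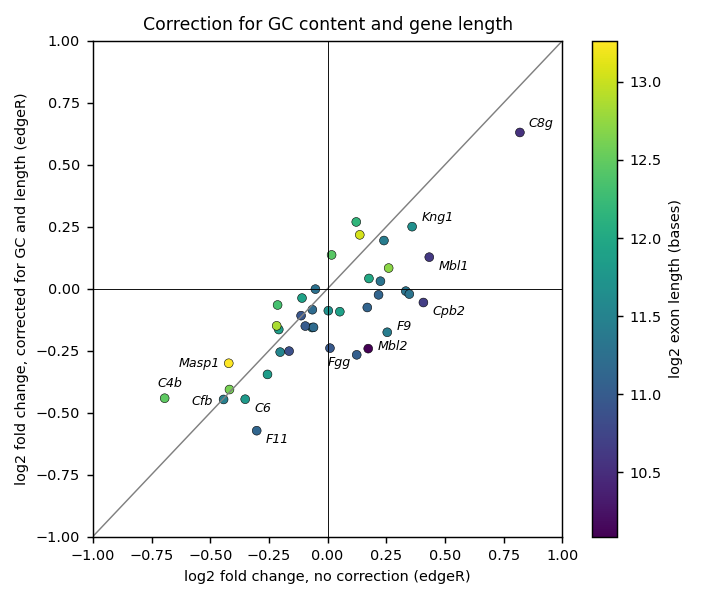
Log2 fold change (edgeR, LΔRbfox2 over LWT) of each of 40 members without (x axis) and with (y axis) correction of each library for gene length and GC content, coloured by log2 exon length in bases, with the diagonal in grey. *Fgg*, *Mbl2* and *Cpb2* change sides of 0, and 30 members lie below 0 on the y axis beside 19 on the x axis.

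Of 24 further complement genes listed, 23 were tested, 0 passed the adjusted threshold, and 5 had an edgeR unadjusted *P* under 0.05, 3 higher and 2 lower, beside 7.95% and 1.83% of all genes. *Cfhr2*, which encodes a factor H-related protein and can share reads with similar genes, had a log2 fold change of 1.18 (standard error 0.38, edgeR adjusted *P* = 0.504), which was 0.52 after the correction for length and GC content and 0.51 with the replicate block as well. *Cfhr2* was at 351, 562, 529 and 288 CPM in LWT livers and at 820, 440, 999.8 and 1650 CPM in LΔRbfox2 livers. LΔRbfox2 replicate 2 again lay among the LWT livers, as in *C8g*. Near *C1ra*, the copies *C1rb*, *C1s1* and *C1s2* of the C1r and C1s genes were chosen after the values of *C1ra* were seen. They also lay lower in LΔRbfox2 livers without overlap between genotypes, beside 1.23% of all genes. Their log2 fold changes were −0.20, −0.26 and −0.43 (edgeR unadjusted *P* of 0.182, 0.135 and 0.0441, adjusted *P* of 0.577, 0.552 and 0.504). *C1ra* and *C1rb*, and *C1s1* and *C1s2*, are near-identical pairs whose reads cannot be assigned with certainty, so values within a pair are not independent. *C1rl*, a related gene, had −0.013.

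Of 22 further coagulation genes listed, 17 were tested, and *Ggcx* alone had an edgeR unadjusted *P* under 0.05, beside 9.79% of all genes. *Ggcx* encodes the γ-glutamyl carboxylase that modifies the vitamin K-dependent factors, of which *F2*, *F7*, *F9*, *F10*, *Proc*, *Pros1* and *Proz* are members here. It was at 20.9, 13.4, 14.8 and 19.6 CPM in LWT livers and at 7.29, 12.3, 5.87 and 7.52 CPM in LΔRbfox2 livers. The genotypes did not overlap, beside 1.23% of all genes in this direction, and LΔRbfox2 replicate 2 was the nearest to the LWT livers. The means were 17.2 ± 3.64 and 8.24 ± 2.79 CPM (SD, n = 4), with a log2 fold change of −1.05 (standard error 0.25, edgeR unadjusted *P* = 0.00209, adjusted *P* = 0.504). Its unadjusted *P* was under 0.05 in 18 of 18 other settings, where the log2 fold change lay between −1.32 and −0.95. *Vkorc1*, encoding the vitamin K epoxide reductase, had 0.42 (edgeR adjusted *P* = 0.531).

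Among 18 transcription factors of secreted liver proteins, 16 had a mean below LWT, beside 51.6% of all genes, with a median log2 fold change of −0.31, and none passed the adjusted threshold. At an edgeR unadjusted *P* under 0.05 were 2 of them, beside 1.83% of all genes in this direction, *Cebpb* at −0.64 and *Stat3* at −0.67 (edgeR adjusted *P* = 0.504 for both), both of which act in the acute phase response. With the correction for length and GC content, *Cebpb* was at −0.54 and *Stat3* at −0.44 (edgeR unadjusted *P* = 0.0202 and 0.074). The count of 16 and the median of the list are without this correction. *Hnf4a* had −0.24 (edgeR adjusted *P* = 0.635). Of 18 acute phase mRNAs, 3 had an edgeR unadjusted *P* under 0.05, beside 9.79% of all genes, with *Orm1* at 0.77, *Saa2* at −3.36 and *Lcn2* at −2.34. After the correction for length and GC content *Orm1* was at 0.18 (edgeR unadjusted *P* = 0.493). *Saa2* was at 455 CPM in LWT replicate 4 and at most 36.7 CPM in the other 7 livers, and *Lcn2* at 42.5 CPM there and at most 3.38 CPM elsewhere. The acute phase list summed to 10330 CPM in LWT replicate 4, beside 6371 to 7257 CPM in the other LWT livers and 5122 to 8064 CPM in LΔRbfox2 livers. LWT replicate 4 was also the highest of the 8 livers in 10 members, among them *C4b*, *C3*, *C8a* and *F11*, and the lowest in 3. The fibrinogen chains lay below their mean log2 CPM in LWT replicate 4, by −0.14 in *Fga*, −0.19 in *Fgb* and −0.24 in *Fgg*. Whether an acute phase response in LWT replicate 4 bears on the members was not tested. Without this liver the log2 fold changes were −0.51 in *C4b*, −0.14 in *C3*, −0.061 in *C8a*, 0.010 in *F11*, −0.30 in *Saa2* and 0.19 in *Lcn2*.

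Markers of other liver cells were at low level. The 8 Kupffer cell markers summed to 76.5 to 132 CPM in LWT and 43.4 to 86.4 CPM in LΔRbfox2 livers, and 2 of the 8 had a mean above and 6 a mean below LWT (median log2 fold change −0.27, from −0.94 in *Csf1r* to 0.48 in *Marco*). An edgeR unadjusted *P* under 0.05 was reached by 2 of the 8, beside 9.79% of all genes, *Csf1r* at −0.94 and *Clec4f* at −0.73 (unadjusted *P* of 0.00532 and 0.0207, adjusted *P* = 0.504 for both). The 8 sinusoidal endothelial markers summed to 135 to 179 and 99.0 to 150 CPM, and 1 of the 8 had a mean above and 7 a mean below LWT (from −0.62 in *Stab2* to 0.15 in *Lyve1*). At an edgeR unadjusted *P* under 0.05 was 1 of the 8, beside 9.79% of all genes, *Ehd3* at −0.60 (unadjusted *P* = 0.0186, adjusted *P* = 0.504). Stellate markers summed to 92.5 to 180 and 118 to 163 CPM, and biliary markers to 14.5 to 25.8 and 16.5 to 61.1 CPM (5 of 6 listed genes tested). Of 5 platelet markers, 1 passed the filter on low counts, *Itga2b*, which was at 0.770 to 2.85 and 0.727 to 1.12 CPM. Macrophages can also express *Cfb* and *C4b*, and the part of these cells in those values was not tested.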

How the data were processed

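Poly(A) RNA of 4 LWT and 4 LΔRbfox2 livers was sequenced with paired-end reads. Per the submitters' processing notes and the study's methods, the authors used CASAVA, aligned reads to GRCm38 with TopHat2 2.0.11 and counted them per gene with featureCounts. The deposited counts are whole numbers without scaling, and the featureCounts settings for strand and shared reads are not given in the sources used here. Groups and replicate numbers came from the labels, and 0 columns were left unmatched. Symbols, positions and exon lengths came from GENCODE M21, which matched 45229 of 46078 identifiers. The members, gene lists and tests were chosen with earlier results of these data known, and the members named with full values are those at an unadjusted *P* under 0.05 or without overlap, the most abundant and most different of each role group, and the fibrinogen and C8 chains. Of the other lists, the members at an unadjusted *P* under 0.05 are named, at most 4 a list (some single results are not reported here), besides genes said to be chosen after their values were seen or named as a background check.

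All genes were tested in R 4.3.3 with edgeR 4.0.16 (filterByExpr with a minimum count of 10, TMM factors, glmQLFit and glmQLFTest, genotype as the only term), with Benjamini–Hochberg adjustment over the 13856 genes kept. All 40 members passed this filter. Standard errors and intervals came from limma-voom (limma 3.58.1), CPM values carry TMM factors, and log2 CPM used a prior count of 2. TPM was computed from counts and exon length, with the exons of all annotated transcripts of a gene merged. With 3 counts taken as the floor, a gene corresponded to 0.0534 to 0.0800 CPM, here without TMM factors, which covers counting error only. Same-genotype libraries were distinct (smallest chi-square per degree of freedom 97.8). The labels number the livers without naming animals, and *P* values measure only the spread between these samples. Alternatives were DESeq2 1.42.0, limma-voom, other size factors and filters, robust estimation, a replicate block, correction for gene length and GC content (lowess, span 0.3), and each liver left out in turn. The test was tried on simulated data. Promoter windows are from RefSeq on GRCm38.p6.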

Additional observations from a re-analysis of the deposited data

Results flagged for a closer look

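In 6 of 80 groups of 4 livers (40 members in each genotype), a liver's gap to its nearest neighbour was large beside the range of the group, and chance alone flags about 4 of 80, or 1 in 20. LWT replicate 3 was high in *Fga*, at 2921 CPM beside 1754 to 1821 CPM in the other LWT livers, and in *Fgb*, at 2695 CPM beside 1747 to 1872 CPM. LΔRbfox2 replicate 2 was low in *Kng1*, at 978.6 CPM beside 1647 to 1662 CPM in the other LΔRbfox2 livers, and in *Serpinc1*, at 939.9 CPM beside 1337 to 1403 CPM. LWT replicate 2 was low in *Plg*, at 1096 CPM beside 1341 to 1381 CPM. LΔRbfox2 replicate 3 was high in *Hrg*, at 805.9 CPM beside 542.7 to 574.4 CPM. Without LWT replicate 3, the log2 fold changes of *Fga* and *Fgb* were 0.15 and 0.22, and without LΔRbfox2 replicate 2 that of *Kng1* was 0.515. The causes were not tested.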

How the results depend on the processing

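In every setting run, 0 of the 40 members passed an adjusted *P* of 0.05, and the median log2 fold change of the members stayed between −0.094 and 0.040. The 3 members at an unadjusted *P* under 0.05, beside 1356 of 13856 genes, became 1 with limma-voom, beside 979 of 13856 genes. With each liver left out in turn they were 0 to 10, beside 404 to 3475 genes. Same-numbered livers did not deviate together (correlations between −0.613 and 0.127, and 1 of 8 livers correlated best with its own number), so the replicate numbers do not pair the livers. With the replicate block, 0 members had an unadjusted *P* under 0.05, beside 335 of 13856 genes. With the block and the correction for length and GC content 1 did, beside 384 of 13856 genes. *Rbfox2* had an adjusted *P* of 2.3e-04 in DESeq2 (log2 fold change −1.82), beside 0.504 in edgeR. The correlation of *C8a* and *C8g* was −0.113 without the 2 farthest livers.

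Of 1026 log2 fold changes recomputed (57 genes in 18 settings), 971 kept their direction and their side of the threshold, and 54 changed sign, 21 of them on leaving out a liver. *Masp2* was at −0.002 with DESeq2 size factors and in the DESeq2 test, and at −0.012 with at least 10 counts in every liver. *Hrg* was at −0.004 there and in limma-voom, and at −0.006 with the replicate block. With upper-quartile factors, *Hrg*, *Masp2* and *Proz* were at −0.029, −0.033 and −0.023, and with no filter at −0.024, −0.028 and −0.016. With the correction for length and GC content, *Fgg* was at −0.267, *Fgb* at −0.093, *Hrg* at −0.24, *Cfi* at −0.025, *Serpind1* at −0.076, *Mbl2* at −0.242, *Cpb2* at −0.056, *C9* at −0.01, *F9* at −0.176, *F13b* at −0.022 and *Masp2* at −0.089. With the replicate block as well, these were −0.243, −0.074, −0.249, −0.042, −0.082, −0.232, −0.053, 0.037 (*C9*), −0.17, −0.024 and −0.079. Leaving out a liver gave −0.168 to 0.15 for *Fga*, −0.043 to 0.224 for *Fgb*, −0.169 to 0.075 for *Hrg*, −0.199 to 0.036 for *Serpinf2*, −0.091 to 0.058 for *Masp2*, −0.117 to 0.065 for *Proz*, −0.438 to 0.01 for *F11*, −0.213 to 0.004 for *C2*, −0.129 to 0.053 for *C1rl* and −2.709 to 0.193 for *Lcn2*. The cause of these changes was not tested. No scaling moved the median of all genes by more than 0.041. TPM without mitochondrial and *Mup* genes was 2.01 to 2.07 times higher and left the order of the members unchanged.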
